A study of Mus musculus with 10 samples.

Results

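The 6 genes Satb1, Ap2s1, Rgs12, Calcrl, Tm4sf1 and Csf2rb2 are described as markers of hilar mossy cells and were followed through ribosome-bound RNA from dorsal and ventral hippocampus. They were chosen by symbol, as mossy cell markers other than calretinin and Drd2, and they account for 6 of the 54838 gene identifiers in the count files. All 10 libraries came from male mice of about 10 weeks, of the strain labelled C57BL/6 (bred with C57BL/6J according to the methods), with the genotype MC-TRAP (Drd2-Cre;Eef1a1LSL.eGFPL10a/+), in which Cre switches on an EGFP-tagged ribosomal protein L10a. In translating ribosome affinity purification (TRAP), the tagged ribosomes are pulled down together with the mRNA they carry. The groups were 5 libraries labelled as dorsal and 5 labelled as ventral hippocampal mossy cells. Each library was made from the pooled tissue of 5 mice, so that the replicate was a pool. According to the methods each hippocampus gave both dorsal and ventral tissue, so the groups were not separate sets of mice. No untreated or unbound fraction was analysed here, and both groups carried the same alleles. Drd2-Cre is not restricted to mossy cells, because it also acts in GABAergic interneurons of the hippocampus and in neurons of the ventral subiculum, a region that the methods describe as trimmed away during dissection. In pooled material of this kind, fewer cells of a type and less RNA per cell cannot be told apart.

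Mossy cells are glutamatergic neurons of the dentate hilus that receive large mossy fibre inputs from granule cells and project back along the long axis of the hippocampus. The 6 genes do not form a pathway. Satb1 is a chromatin organiser of the nucleus, Rgs12 a brake on G protein signalling, Ap2s1 a subunit of the endocytic AP-2 adaptor, Calcrl and Csf2rb2 are receptor subunits at the plasma membrane, and Tm4sf1 is a multi-pass membrane protein. Calcrl makes the receptor for calcitonin gene-related peptide (CGRP) when it pairs with RAMP1 and receptors for adrenomedullin when it pairs with RAMP2 or RAMP3. Csf2rb2 is the interleukin-3 specific relative of Csf2rb, the beta chain shared by the receptors for interleukin-3, interleukin-5 and GM-CSF.

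Between 11138676 and 16779821 counts fell on genes in dorsal and between 11618625 and 20594364 in ventral libraries. CPM are counts scaled to library size, and 3 counts, the smallest level read here, equalled 0.146 to 0.269 CPM. These floors cover counting error only. The share of read pairs on no annotated gene was 27.0 ± 5.09% (SD, n = 5) for dorsal libraries and 14.4 ± 3.0% (n = 5) for ventral ones, with no overlap (two-sided exact permutation test, p = 0.00794, the smallest the design allows). Read pairs that could not be assigned to a single gene made up 6.42 ± 0.553% and 7.66 ± 0.989% (exact permutation p = 0.0476). Mitochondrial mRNA was at 2962 ± 315 CPM in the dorsal group and 789 ± 306 CPM in the ventral group, again with no overlap (exact permutation p = 0.00794). These measures cannot be told apart from the groups, and their part in the differences of the marker genes was not tested. Gad2, a defining enzyme of GABA synthesis, was at 512 CPM per kilobase of exon over all libraries, and Slc17a7, the vesicular glutamate transporter of mossy cells, at 35.8 CPM per kilobase. Other genes of the same lists were at 40.0 (Gad1) and 18.9 (Slc32a1) CPM per kilobase for GABAergic neurons and at 271 (Camk2a) and 267 (Neurod6) for excitatory neurons. The ratio of Gad2 to Slc17a7 CPM was 14.1 ± 4.19 (n = 5) in dorsal and 18.6 ± 4.06 (n = 5) in ventral libraries (exact permutation p = 0.103). Markers of both neuron classes were thus present, and mossy cell is used below only as the label of the libraries. Among 6 other genes used to recognise mossy cells, Calb2 (log2 fold change of dorsal over ventral -3.24) and Adcyap1 (-1.13) were ventral-enriched, Cyp26b1 (1.05), Gria2 (0.81) and Gria3 (0.70) were dorsal-enriched, and Drd2 was not called (0.45, adjusted p = 0.0517 in edgeR). With offsets for GC content and exonic length the sign of Gria2 turned (-0.10), Gria3 lost its call (0.39), and Drd2 was called dorsal-enriched (0.63). Slc17a7, not called without the offsets (0.28), was also called dorsal-enriched with them (0.60).

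The 6 genes covered almost the whole range of expression. Ranked by mean CPM over all libraries among the 16806 genes that passed the expression filter (CPM above 1 in at least 2 libraries), Satb1 was at rank 465, with 97.2% of tested genes below it. Ap2s1 was at rank 2695, Rgs12 at 5002, Calcrl at 9439 and Tm4sf1 at 11932. Csf2rb2 did not pass the filter and would have been at rank 16166. In single libraries the rank of Satb1 ran from 307 to 799, that of Calcrl from 6469 to 11677 and that of Csf2rb2 from 13845 to 16303.

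**Figure D1:**
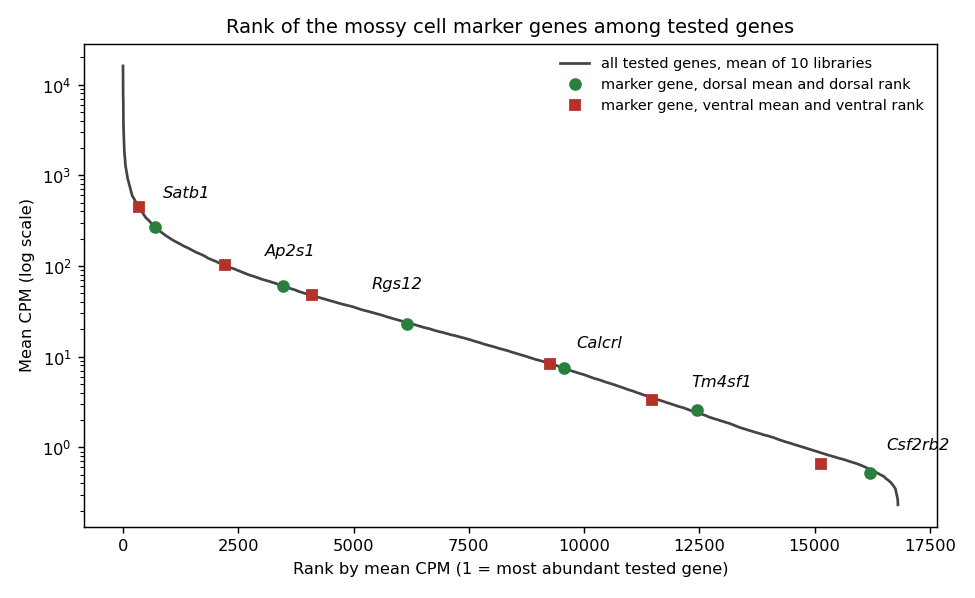
Mean CPM (log scale) against rank for the tested genes (line), with the dorsal mean and rank (circles) and ventral mean and rank (squares) of the 6 marker genes. The genes run from Satb1, at rank 687 in dorsal and 338 in ventral libraries, to Csf2rb2, which has 3.81% of tested genes below its mean over all libraries, at rank 16166.

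Because longer transcripts collect more reads, levels of different genes were compared per kilobase of exon. On this scale Ap2s1, the shortest of the 6 with 1.472 kb of exon, led with 40.8 ± 10.8 CPM per kilobase (SD, n = 5) in dorsal and 69.5 ± 14.1 (n = 5) in ventral libraries. Satb1, with 19.027 kb, followed at 14.2 ± 1.51 and 23.6 ± 1.74 CPM per kilobase. The order after these was Rgs12, Calcrl, Tm4sf1 and Csf2rb2 in both groups. Rgs12 was at 2.73 ± 0.368 and 5.60 ± 0.649, Calcrl at 1.54 ± 1.61 and 1.69 ± 0.538, and Tm4sf1 at 0.618 ± 0.172 and 0.800 ± 0.479 CPM per kilobase. Csf2rb2 was last, at 0.110 ± 0.0827 and 0.137 ± 0.0796. The ranges of neighbours in this order did not overlap within a group, except for Rgs12 and Calcrl in dorsal libraries, and Calcrl and Tm4sf1 in both groups. Within single libraries, Rgs12 was above Calcrl in 4 of 5 dorsal libraries. Calcrl was above Tm4sf1 in 4 of 5 dorsal and in all 5 ventral libraries.

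Spread between replicates differed as widely as the levels. The coefficient of variation of Satb1 was 10.7% in dorsal and 7.38% in ventral libraries, and only 1.66% of tested genes had a lower biological coefficient of variation in the edgeR fit than its 0.122. That of Rgs12 was 0.170 and that of Ap2s1 0.217. The spread was larger for Tm4sf1 (0.490) and for Calcrl (0.554), above the values of 69.4% and 74.8% of tested genes.

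**Figure D2:**
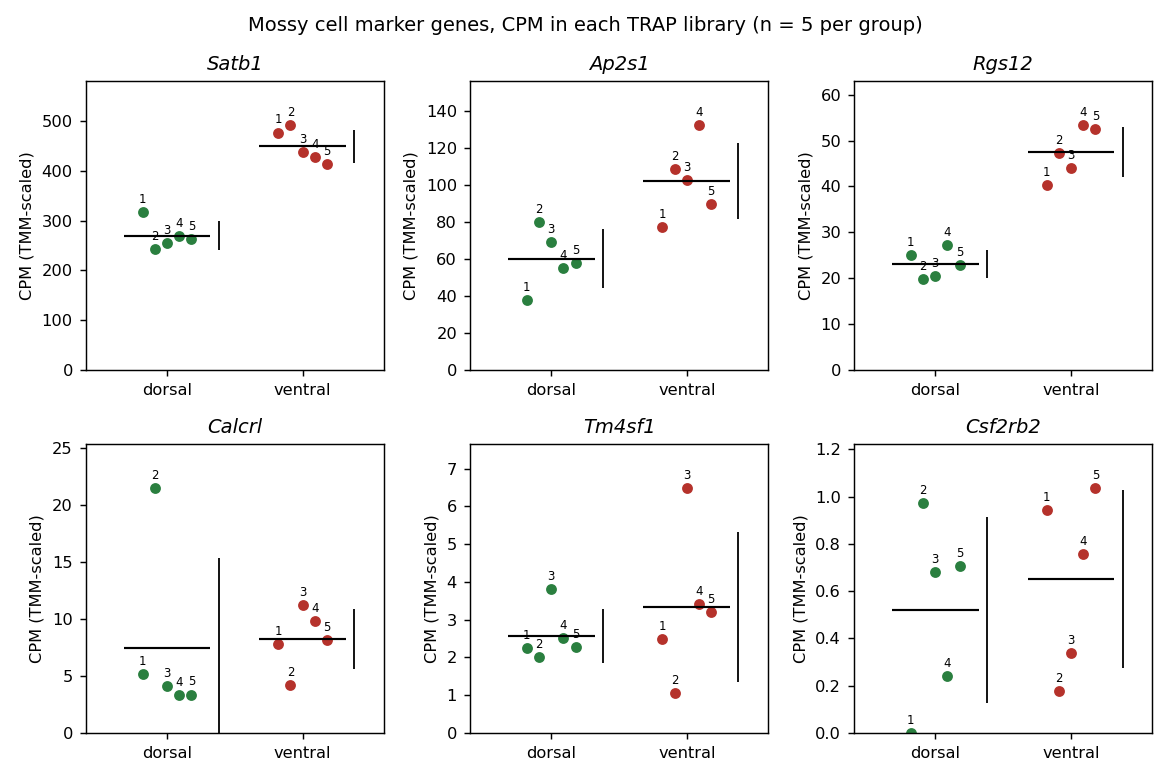
CPM scaled by TMM of the 6 marker genes in each of the 5 dorsal and 5 ventral libraries; numbers beside points are replicate numbers, horizontal lines the group means, and vertical lines 1 SD to either side, drawn no lower than 0. Ventral libraries all lie above dorsal libraries for Satb1 and Rgs12, whereas for Calcrl dorsal replicate 2, at 21.5 CPM, is the highest of all libraries.

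Dorsal and ventral libraries were compared to ask which marker genes differ along the dorsoventral axis. Of the 5 genes that could be tested, 3 were ventral-enriched, Satb1, Rgs12 and Ap2s1, and 0 were dorsal-enriched, where a call needs both an adjusted p under 0.05 and group means (CPM + 1) that differ by over 0.58 on the log2 scale. By the same rule 9.85% of tested genes were ventral-enriched, 15.7% dorsal-enriched and 25.5% either. Calcrl and Tm4sf1 were not called. The fitted log2 fold change of dorsal over ventral lay below 0 for all 5, with a median of -0.74, against a median of -0.0044 over all tested genes. The ventral libraries lay above all dorsal libraries for 2 of the 5, Satb1 and Rgs12, a pattern found in 8.36% of tested genes, and the reverse, found in 9.81%, held for 0.

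**Figure D3:**
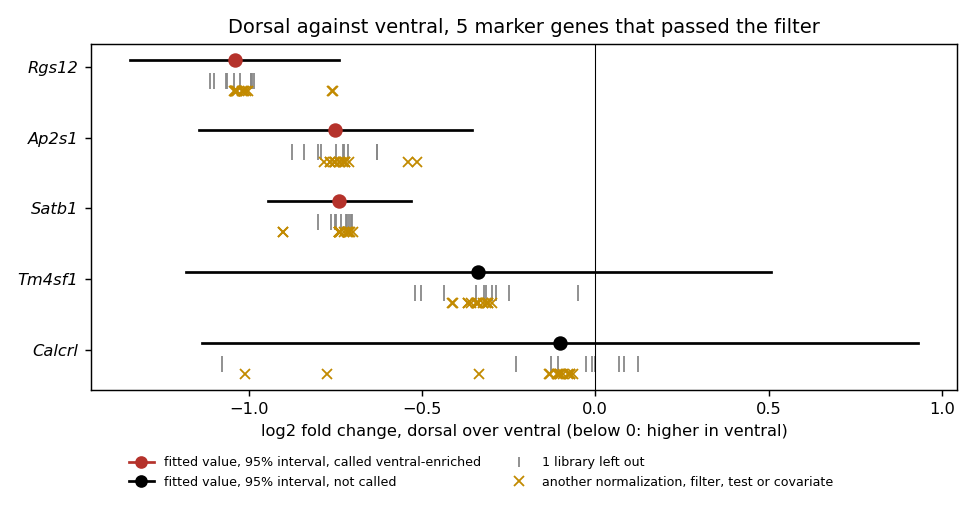
Fitted log2 fold change of dorsal over ventral (circles) with 95% intervals for the 5 marker genes that passed the filter and red circles were called ventral-enriched. Grey ticks show the value without 1 library and crosses the value under another normalization, filter, test or covariate. Calcrl is the gene whose value moves most, from -1.08 to 0.12, while Satb1, Rgs12 and Ap2s1 stay below 0 throughout.

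Satb1, which folds chromatin into loops and recruits remodelling complexes, and which is known in the cortex from somatostatin and parvalbumin interneurons, had the highest CPM of the 6. Dorsal replicates 1 to 5 held 318, 242, 255, 269 and 263 CPM, whereas ventral replicates 1 to 5 held 477, 491, 437, 428 and 414 CPM. The lowest ventral library was well above the highest dorsal library. The level was 1.67-fold higher in ventral libraries (95% interval 1.45 to 1.92), a log2 fold change of -0.74 ± 0.096 (SE) of dorsal over ventral (adjusted p = 0.000151, edgeR quasi-likelihood test). Of its exonic length, 1.49% lies under 2 provisional transcript annotations, Gm36931 and Gm6934, which averaged at most 1.79 CPM in either group.

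Lhx6, Sst and Pvalb, genes of interneurons that also express Satb1, were ventral-enriched in the same libraries, unlike most interneuron genes listed. The paper used Satb1 protein as a marker of mossy cells in the hilus. Lhx6, the transcription factor of interneurons from the medial ganglionic eminence, was at 49.0 ± 7.70 CPM (dorsal) and 82.6 ± 7.5 CPM (ventral) (log2 fold change -0.76, adjusted p = 0.000967). Sst was at 453 ± 16.2 and 714 ± 133 CPM (-0.66, adjusted p = 0.000986) and Pvalb at 17.0 ± 1.66 and 26.2 ± 2.31 CPM (-0.63, adjusted p = 0.00481). The ratio of Satb1 to Lhx6 CPM was 5.59 ± 0.810 in dorsal and 5.50 ± 0.849 in ventral libraries (n = 5 each, exact permutation p = 0.849), and that of Satb1 to Sst was 0.596 ± 0.0704 and 0.641 ± 0.0828 (exact permutation p = 0.381). Relative to Gad2 the 2 groups did not overlap, at 0.0955 ± 0.00850 and 0.143 ± 0.0115 (exact permutation p = 0.00794). Relative to Slc17a7 they did not overlap either, at 1.33 ± 0.360 and 2.64 ± 0.526 (exact permutation p = 0.00794). These 4 ratios were chosen after the values had been seen, and the last pair had an adjusted p of 0.0159 over the 4 by exact permutation. The ratios restate the fold changes of their genes. Lhx6 and Sst had been named for being ventral-enriched like Satb1, so similar ratios in both groups follow from that choice. The p-values of the ratios therefore do not tell which cells carried Satb1. Over the whole list of 13 interneuron genes, 3 were ventral-enriched and 1, Dlx6, was dorsal-enriched (0.79). The others, among them Gad1 (-0.46), Gad2 (-0.15) and Slc32a1 (-0.062), were not called. The summed level ranged from 3824 to 5029 CPM in dorsal and from 4606 to 6033 CPM in ventral libraries. The part of interneurons in the Satb1 difference was not tested.

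Rgs12, which speeds up GTP hydrolysis by inhibitory G protein alpha subunits and so shortens their signal, had the largest fold difference among the tested marker genes when all libraries entered and no offsets were used. With offsets for GC content and exonic length its log2 fold change was -0.76 and that of Satb1 -0.90. Dorsal replicates 1 to 5 held 25.1, 19.8, 20.5, 27.3 and 23.0 CPM, against 40.4, 47.2, 44.1, 53.4 and 52.4 CPM for ventral replicates 1 to 5. Every ventral library was above every dorsal library. The level was 2.06-fold higher in ventral libraries (95% interval 1.67 to 2.53), a log2 fold change of -1.04 ± 0.14 (SE) with an adjusted p of 0.000201 (edgeR quasi-likelihood test). An antisense annotation, Gm43791, covers 5.50% of the exonic length of Rgs12, and it had 0 counts in every library.

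The nearest relatives of Rgs12 were not called. Rgs10 had the highest CPM of all RGS genes listed, at 784 ± 195 CPM (dorsal) and 611 ± 229 CPM (ventral) (0.36 ± 0.22 SE, adjusted p = 0.209), and Rgs14, a scaffold known from CA2, was at 11.8 ± 1.93 and 10.1 ± 2.33 CPM (0.26 ± 0.20 SE, adjusted p = 0.344). Without ventral replicate 2, Rgs10 was called dorsal-enriched (0.60). Both members of the R12 subfamily thus had fitted values above 0, where that of Rgs12 was below 0. Of 16 other RGS genes, 14 were tested, 2 were ventral-enriched and 2 dorsal-enriched, and the median log2 fold change was -0.15. The ventral-enriched genes were Rgs4 (-0.64, adjusted p = 0.00320) and Rgs16 (-1.26, adjusted p = 0.0224), and the dorsal-enriched ones Rgs3 (1.27, adjusted p = 0.0213) and Rgs13 (1.73, adjusted p = 0.0371). Rgs13 was near the filter, at 1.65 ± 0.744 and 0.535 ± 0.525 CPM, and lost its call in 14 of 24 alternatives, among them without dorsal replicate 2, 3, 4 or 5 or ventral replicate 3, 4 or 5 (1.44 to 1.76). Rgs3 lost its call without dorsal replicate 3 (1.06) or 5 (1.19), Rgs16 without dorsal replicate 3 (-1.09) or ventral replicate 5 (-1.19) and with the offsets and the replicate block together (-1.15), and Rgs4 without dorsal replicate 2 (-0.57). Rgs17, at 442 CPM the highest of these 16, had a log2 fold change of -0.54 and was not called, but it was with the GC and length offsets (-1.32) or without dorsal replicate 1 (-0.65).

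Ap2s1 encodes the sigma subunit of AP-2, which takes part in recognising dileucine signals in cargo. The dorsal levels, in the order of replicates 1 to 5, were 37.9, 80.1, 69.5, 55.1 and 58.0 CPM, and the ventral ones 77.5, 109, 103, 132 and 89.9 CPM. The groups overlapped, since dorsal replicate 2 was above ventral replicate 1. The level was 1.68-fold higher in ventral libraries (95% interval 1.28 to 2.21), a log2 fold change of -0.75 ± 0.18 (SE) with an adjusted p of 0.00762 (edgeR quasi-likelihood test). With offsets for GC content and exonic length the log2 fold change was -0.52 and Ap2s1 was no longer called, since it stayed below the fold threshold with an adjusted p of 0.0201.

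AP-2 has 4 other subunits, and their fitted differences were all in the ventral direction. Ap2a2, a large alpha subunit, was ventral-enriched at 102.5 ± 14.4 CPM (dorsal) and 169 ± 22.1 CPM (ventral) (-0.71, adjusted p = 0.00109), as was Ap2a1, the other alpha subunit, at 17.8 ± 4.97 and 28.1 ± 5.96 CPM (-0.62, adjusted p = 0.0303). The medium subunit Ap2m1 did not pass the fold threshold (-0.49, adjusted p = 0.00841), and the beta subunit Ap2b1 was at 158 ± 32.4 and 162 ± 15.5 CPM (-0.044, adjusted p = 0.824). With the GC and length offsets Ap2a1 (-0.32) and Ap2a2 (-0.48) also lost their calls, and Ap2b1 turned sign (0.065). Ap2a1 lost its call in 9 of 24 alternatives, among them without dorsal replicate 1, 2 or 4 or ventral replicate 2, 4 or 5 (-0.66 to -0.50).

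Within the complex, Ap2s1 made up 38.7 ± 7.89% of the summed CPM per kilobase of the 5 subunit genes in dorsal and 44.1 ± 4.81% in ventral libraries (n = 5 each, exact permutation p = 0.222). The share of Ap2b1 was 17.5 ± 4.93% in dorsal and 11.9 ± 1.2% in ventral libraries (exact permutation p = 0.0159, 0.0794 after Benjamini-Hochberg adjustment over the 5 subunits). None of the 5 shares passed that adjustment.

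A further pair of lists describes the machinery around Ap2s1. Of the 7 sigma subunits of other adaptors, which sort cargo at the Golgi and endosomes, Ap1s1 (-0.66, adjusted p = 0.00318) and Ap5s1 (-1.0, adjusted p = 0.00681) were ventral-enriched, 0 were dorsal-enriched, and the median log2 fold change was -0.51. Of 18 clathrin and endocytic accessory genes, Dnm1, the neuronal dynamin that cuts vesicles from the membrane, was the only 1 called, at 309 ± 26.6 CPM (dorsal) and 522 ± 81.9 CPM (ventral) (-0.75, adjusted p = 0.00047). The median of this list was -0.21, and the gene with its highest CPM, Eps15, was at 1063 ± 191 and 1023 ± 102 CPM. With the GC and length offsets Ap1s1 (-0.46) and Dnm1 (-0.41) lost their calls, as Ap1s1 did without dorsal replicate 1 (-0.57) and Ap5s1 with the offsets and the replicate block together (-0.75, adjusted p = 0.0537). Ap1s2 was called ventral-enriched with the offsets (-1.61 against -0.51), and also without dorsal replicate 1 (-0.59) or ventral replicate 5 (-0.60).

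Sequence upstream of the 3 ventral-enriched genes is printed to compare the bases before their start sites. The bases come from RefSeq (GRCm38.p6), up to 250 before the most upstream RefSeq start, and end where the GENCODE gene begins: for Satb1 chr17:51833291-51833540 on the minus strand, for Rgs12 chr5:34949198-34949444 on the plus strand, and for Ap2s1 chr7:16738194-16738409 on the plus strand. Capitals mark GC boxes, GGGCGG on either strand.
Satb1: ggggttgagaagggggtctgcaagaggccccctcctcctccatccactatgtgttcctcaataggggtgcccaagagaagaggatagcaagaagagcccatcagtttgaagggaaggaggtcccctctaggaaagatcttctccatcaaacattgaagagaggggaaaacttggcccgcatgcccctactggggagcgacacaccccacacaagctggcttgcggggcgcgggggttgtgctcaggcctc
Rgs12: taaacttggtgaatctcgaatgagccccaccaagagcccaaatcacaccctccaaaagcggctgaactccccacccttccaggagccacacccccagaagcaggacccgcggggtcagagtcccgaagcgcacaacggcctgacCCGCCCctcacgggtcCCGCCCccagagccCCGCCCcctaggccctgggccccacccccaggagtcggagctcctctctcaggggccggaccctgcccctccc
Ap2s1: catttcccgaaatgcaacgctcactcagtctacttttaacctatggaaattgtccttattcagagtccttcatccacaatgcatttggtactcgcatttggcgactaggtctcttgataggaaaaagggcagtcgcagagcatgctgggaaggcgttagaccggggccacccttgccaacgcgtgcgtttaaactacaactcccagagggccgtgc

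The Rgs12 stretch held 3 GC boxes, and those of Satb1 and Ap2s1 held 0. Among 32817 RefSeq promoters of the mouse, 32.7% of these windows of 250 bases held at least 1. The other motifs searched, on both strands, were absent from all 3 stretches: the CCAAT box (letters CCAAT, in 33.8% of promoters), the TATA box (TATAAA, in 12.4%), a nuclear receptor half-site (AGGTCA, in 14.0%) and the cyclic AMP response element (TGACGTCA, in 1.55%). CG dinucleotides numbered 5 for Satb1, 13 for Rgs12 and 11 for Ap2s1. Satb1 has 5 RefSeq starts and Rgs12 has 2, and the counts do not tell which start was used. The 250 bases before the second Satb1 start, 643 bases downstream of the first, held 3 GC boxes and 41 CG dinucleotides, more than 98.9% of promoters, and those before another of its starts held 1 AGGTCA half-site. The second Rgs12 start had 1 GC box.

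Calcrl, the G protein-coupled receptor of CGRP and adrenomedullin, was the marker gene whose call changed when 1 library was left out. It was at 5.16, 21.5, 4.15, 3.30 and 3.37 CPM in dorsal replicates 1 to 5, and the value of dorsal replicate 2 came from 332 read pairs. In ventral replicates 1 to 5 it was at 7.81, 4.22, 11.2, 9.79 and 8.15 CPM. Dorsal replicate 2 was the highest of all libraries, and the other dorsal libraries were below every ventral library but replicate 2. The means were 7.5 ± 7.88 CPM (SD, n = 5) and 8.23 ± 2.63 CPM (n = 5), and the log2 fold change was -0.10 ± 0.48 (SE, 95% interval -1.13 to 0.93, adjusted p = 0.892 in edgeR). This interval includes a ventral excess of 2.2-fold. Without dorsal replicate 2 the dorsal mean was 4.0 ± 0.869 CPM (n = 4), the log2 fold change was -1.08 ± 0.30 (SE), and Calcrl was called ventral-enriched (adjusted p = 0.0152). Without dorsal replicate 3, 4 or 5 the fitted value was above 0, at 0.068, 0.12 and 0.083. With the offsets for GC content and exonic length it was -0.77 (adjusted p = 0.218), whereas offsets and replicate block together gave -1.01 (adjusted p = 0.149).

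The partners of Calcrl were read in dorsal replicate 2 as well. Ramp1 was at 19.9 CPM there, against 9.67 to 22.2 CPM in the other dorsal libraries, and Ramp2 was at 6.03 against 3.10 to 9.66 CPM. The 10 endothelial genes, a cell type rich in Calcrl, summed to 22.7 CPM, against 16.7 to 51.7 CPM in the other dorsal libraries. The 8 microglial genes summed to 43.4 CPM against 28 to 31.4 CPM, and the 6 other mossy cell genes to 1745 CPM against 1474 to 1601 CPM, both above the range of the other dorsal libraries, as was the sum of the common beta-chain genes (80.6 against 58.0 to 64.6 CPM). Cell type sums below that range were those of excitatory neuron genes (3223 against 3517 to 3738 CPM), granule cell genes (305 against 325 to 363 CPM), CA3 genes (274 against 317 to 343 CPM) and astrocyte genes (278 against 308 to 361 CPM). Sums of the AP-2 subunit genes other than Ap2s1 (336 against 359 to 415 CPM) and of the other RGS genes (1256 against 1279 to 1596 CPM) were below it too. Inside the range were the sums of interneuron, mural and CA1 genes and of the marker genes. So were those of the CGRP and adrenomedullin, other adaptor sigma, clathrin, R12 and TM4SF lists. For every sum some dorsal library lies above the others and some below, so such a place does not by itself mark a library. The part of any cell type in the Calcrl value was not tested.

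Among the receptor partners, Ramp1, which turns Calcrl into the CGRP receptor, was at 18.2 ± 5.03 CPM (dorsal) and 18.3 ± 2.01 CPM (ventral) (0.0073 ± 0.19 SE, adjusted p = 0.983). Ramp2, which turns it into an adrenomedullin receptor, was dorsal-enriched at 6.64 ± 2.46 and 3.29 ± 0.983 CPM (1.09, adjusted p = 0.0185). Ramp3 was at 1.57 ± 0.469 and 1.99 ± 0.550 CPM (-0.35, adjusted p = 0.475). On the per-kilobase scale Ramp1 was at 6.03 CPM per kilobase over all libraries, above Calcrl at 1.61, Ramp2 at 1.5 and Ramp3 at 1.29. Of the 3 accessory proteins that set the ligand of Calcrl, only Ramp2 was called.

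The ligands were low. Calca, which encodes CGRP, was at 0.419 ± 0.318 CPM (dorsal) and 2.31 ± 0.543 CPM (ventral), with every ventral library above every dorsal library (log2 fold change -2.33 ± 0.50 SE, adjusted p = 0.00234 in edgeR). The dorsal libraries ran from 0.0 to 0.748 CPM. The second CGRP gene, Calcb, and adrenomedullin, Adm, were tested and not called, Adm2 had 0 counts in all libraries, and the calcitonin receptor Calcr, with 10 counts over all libraries, did not pass the filter. Crcp, an accessory protein of CGRP receptor signalling, had the highest CPM of the list (21.5) and was not called (0.43, adjusted p = 0.103). Of the 7 tested genes in this list 1 was dorsal-enriched and 1 ventral-enriched, and the median log2 fold change was 0.43.

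Tm4sf1, a membrane organiser best known from endothelial cells, was low in both groups. Dorsal replicates 1 to 5 had 2.25, 2.01, 3.81, 2.52 and 2.27 CPM, and their ventral counterparts 2.49, 1.05, 6.49, 3.41 and 3.20 CPM. The ventral range enclosed the dorsal range. The log2 fold change was -0.34 ± 0.39 (SE, 95% interval -1.18 to 0.51, adjusted p = 0.537 in edgeR), which is 0.704 to 2.27 as a fold of ventral over dorsal. Leaving out 1 library at a time gave -0.52 to -0.050, and no alternative led to a call. In the 4 relatives searched, Tm4sf4, Tm4sf5, Tm4sf19 and Tm4sf20, no gene passed the filter, and they summed to at most 0.758 CPM in any library.

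Endothelial genes were present at low levels beside Tm4sf1. Of the 10 in the list, 9 were tested and 0 called (median log2 fold change -0.53), and their summed level ranged from 16.7 to 51.7 CPM in dorsal and from 15.3 to 66.0 CPM in ventral libraries. Cldn5, the claudin that defines brain endothelium, was at 0.433 ± 0.376 and 1.13 ± 0.735 CPM. The highest in CPM, Flt1, was at 13.2 ± 7.72 and 21 ± 12 CPM. The 5 mural cell genes summed to 4.98 to 13.7 CPM in dorsal and 4.6 to 6.94 CPM in ventral libraries, with 3 tested and 0 called. The part of vessels in the Tm4sf1 level was not tested.

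Csf2rb2 was at the edge of detection. Its counts were 0, 15, 10, 4 and 9 in dorsal replicates 1 to 5 and 17, 2, 4, 12 and 22 in ventral replicates 1 to 5, so that dorsal replicate 1 and ventral replicate 2 were below the floor of 3 counts. The CPM values ran from 0.0 to 0.973 in dorsal and from 0.176 to 1.04 in ventral libraries, and the groups overlapped. The means were 0.520 ± 0.392 and 0.650 ± 0.377 CPM (SD, n = 5 each, two-sided exact permutation p = 0.595). Without the expression filter, the edgeR log2 fold change was -0.42 ± 0.64 (SE, adjusted p = 0.736 over 36531 genes). No difference was detected at these counts, and a difference was not excluded.

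Reads from stretches that Csf2rb2 shares with Csf2rb, its neighbour and paralog, cannot be placed on 1 of these genes. The count files list 0 read pairs with several alignments in every library, so they do not tell what became of such reads. Csf2rb2 lies at chr15:78282507-78305721 on the minus strand and Csf2rb at chr15:78325752-78353847 on the plus strand (GRCm38). Their coding sequences were identical at 95.2% of 2628 aligned bases, with a longest identical run of 242 bases, and 18.9% of the 50-base words of Csf2rb2 exons also occurred in other genes, 892 of 916 in Csf2rb. A stretch of exon 4 is printed to show where reads of 50 bases can be told apart. It covers coding bases 301 to 400 of Csf2rb2, chr15:78294345-78294444 on the minus strand, and 298 to 397 of Csf2rb, chr15:78338887-78338986 on the plus strand, and capitals mark the 16 positions that differ.
Csf2rb2: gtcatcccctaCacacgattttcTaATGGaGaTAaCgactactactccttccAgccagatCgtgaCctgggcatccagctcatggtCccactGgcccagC
Csf2rb: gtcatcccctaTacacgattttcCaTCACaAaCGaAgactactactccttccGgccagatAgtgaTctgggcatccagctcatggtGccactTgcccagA

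Counts were therefore read for both paralogs side by side. Csf2rb had 5, 2, 5, 10 and 4 counts in dorsal and 2, 13, 0, 3 and 2 counts in ventral replicates 1 to 5. Csf2rb exceeded Csf2rb2 in 3 libraries, dorsal replicates 1 and 4 and ventral replicate 2. The share of Csf2rb2 in the counts of both was 50.5 ± 35.6% in dorsal and 74.9 ± 35.1% in ventral libraries (n = 5 each, exact permutation p = 0.262). Counting error alone was wide, as in ventral replicate 2 with 13.3% (95% exact Clopper-Pearson interval 1.66 to 40.5%) or dorsal replicate 2 with 88.2% (63.6 to 98.5%). Without ventral replicate 2 the difference of dorsal minus ventral moved from -24.4 to -39.7 percentage points (exact permutation p = 0.0317).

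**Figure D4:**
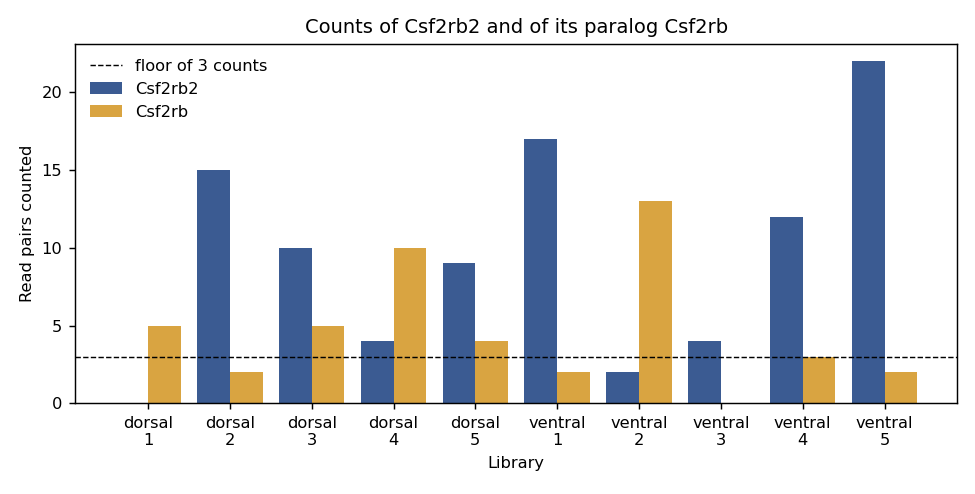
Read pairs counted on Csf2rb2 and on its paralog Csf2rb in each library; the dashed line marks the floor of 3 counts. Csf2rb exceeds Csf2rb2 in dorsal replicates 1 and 4 and in ventral replicate 2, and no library holds more than 22 read pairs of either gene.

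The other chains of these cytokine receptors and their signalling proteins were read next. Csf2ra, the GM-CSF receptor alpha chain, was at 7.04 ± 2.25 CPM (dorsal) and 12.3 ± 6.18 CPM (ventral) and was not called (-0.83 ± 0.36 SE, adjusted p = 0.0859), but it was without ventral replicate 1 (-1.03) or ventral replicate 2 (-0.96). The interleukin-3 receptor alpha chain Il3ra, which Csf2rb2 needs as its partner, had 16 counts over all libraries, and the cytokine genes Csf2, Il3 and Il5 had 0, 1 and 4. Downstream of the receptor, the kinase Jak2 was at 51.0 ± 9.79 and 38.7 ± 20.8 CPM (0.43, adjusted p = 0.206; 0.78 and dorsal-enriched without ventral replicate 2), and the transcription factor Stat5b was ventral-enriched at 6.62 ± 1.95 and 13.5 ± 1.49 CPM, with no overlap (-0.99 ± 0.21 SE, adjusted p = 0.00362). Of the 10 genes in this list 3 were tested, and their median log2 fold change was -0.83. The 8 microglial genes, a cell type known for these receptors, summed to 28 to 43.4 CPM in dorsal and 20.6 to 43.7 CPM in ventral libraries, with 1 of 8 dorsal-enriched (C1qa) and 0 ventral-enriched. Csf1r, which defines microglia, was at 6.13 ± 1.13 and 4.36 ± 0.680 CPM. The part of microglia in the Csf2rb2 counts was not tested.

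**Figure D5:**
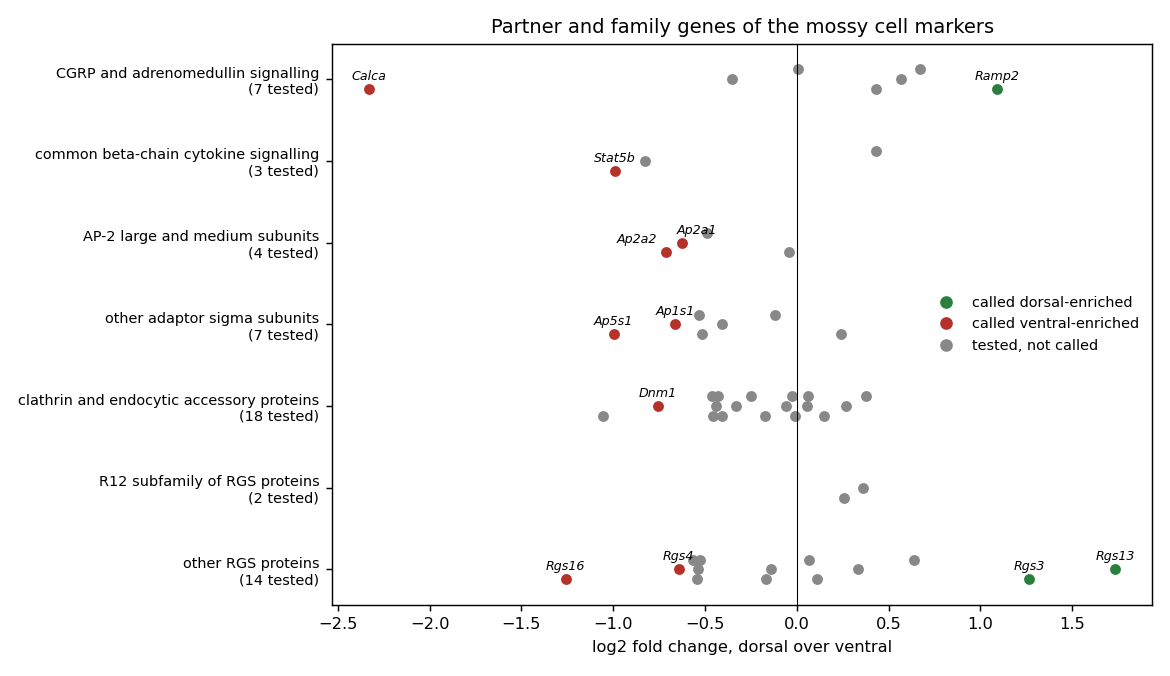
Log2 fold change of dorsal over ventral for the tested partner and family genes of the marker genes, 1 point per gene and 1 line per list; green points were called dorsal-enriched, red points ventral-enriched and grey points not called. Named points are the called genes, from Calca at -2.33 to Rgs13 at 1.73.

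Marker lists of other cell types were summed in the same libraries. Of 15 genes in the excitatory neuron, dentate granule cell and CA3 pyramidal cell lists, 2 were dorsal-enriched, Prox1 (0.72) and Bok (0.87), 1 was ventral-enriched, and 12 were not called. The ventral-enriched gene was Slc17a6, a second vesicular glutamate transporter, at 11.4 ± 1.75 CPM in the dorsal and 29.7 ± 4.63 CPM in the ventral group (-1.39, adjusted p = 0.00011, edgeR). The summed CPM nevertheless was higher in dorsal libraries, without overlap, for excitatory neurons (3223 to 3738 against 2634 to 3002 CPM, most of it Camk2a). Camk2a missed the fold threshold (0.41, adjusted p = 0.00189 in edgeR) and was called dorsal-enriched with the GC and length offsets (0.64). Sums were also higher in dorsal libraries, without overlap, for granule cells (305 to 363 against 151 to 276 CPM, most of it Prox1) and for CA3 pyramidal cells (274 to 343 against 231 to 258 CPM, led by Cpne4, which was not called). The sum of the 4 CA1 pyramidal cell genes overlapped (109.7 to 198 against 126 to 210.0 CPM, led by Wfs1, with 0 called). Of 6 astrocyte genes, Aqp4 (0.79), Gfap (0.76) and Slc1a3 (0.65) were dorsal-enriched and Aldh1l1 (-1.72) ventral-enriched, while their sum overlapped (278 to 361 against 241 to 392 CPM, led by Aldoc, which was not called, -0.56). The genes named here other than the highest in CPM of each list, like Gad1, Slc32a1 and Neurod6 above, were chosen after their values were seen. The part of these cells in the differences of the marker genes was not tested.

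The 15 pairs of marker genes were also compared across libraries. Satb1 and Rgs12 had a Pearson r of 0.92 over the 10 libraries on the scale of log2(CPM + 1), which fell to 0.15 once the group means were taken out. Ap2s1 and Satb1 had an r of 0.61, and of -0.72 within groups. These are descriptions over libraries that share a group difference and carry no test.

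The genes whose pattern over the 10 libraries was most like that of a marker gene were named by Pearson r of log2(CPM + 1), among protein-coding genes with a mean CPM of at least 10. For Satb1 they were Zwint (0.989), Atp5a1 (0.988) and Etfa (0.985), and for Rgs12 Tcf25 (0.97), Snap47 (0.974) and Ppp2r5d (0.970). For Ap2s1 they were Serp2 (0.973), Tfpt (0.968) and Romo1 (0.961). For Calcrl, where dorsal replicate 2 sets the pattern, they were Asb7 (0.960), Dnajc1 (0.928) and Dclre1c (0.925), and for Tm4sf1 Med11 (0.932), Hist2h2be (0.931) and Dsp (0.924). An r above 0.9 was reached by 296 genes for Satb1, 181 for Rgs12, 76 for Ap2s1, 12 for Tm4sf1 and 8 for Calcrl of 8498 or 8499 compared.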

How the data were processed

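The authors amplified the TRAP RNA per library with Ovation RNAseq V2, made TruSeq v2 libraries, sequenced 50 bp paired ends, aligned them to GRCm38 with STAR 2.5.2b and assigned read pairs to Ensembl genes with HTSeq 0.7.2. The authors deposited raw counts, as whole numbers. The annotation release and the strand setting are not given in the sources used here, so overlapping genes are reported as uncertain. Lines that name no gene were left out; the pairs on no gene made up 27.0% (dorsal) and 14.4% (ventral) on average. Counts differed between libraries of a group by 4.36 to 45.1 times sampling noise, so no library was a duplicate.

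Groups came from the sample titles. The comparison used edgeR 4.0.16 in R 4.3.3: CPM above 1 in at least 2 libraries (16806 genes), TMM scaling and the quasi-likelihood test of dorsal against ventral with p-values adjusted by Benjamini and Hochberg over every tested gene. A call needed an adjusted p under 0.05 and group means (CPM + 1) differing by more than 0.58 on the log2 scale. SE is the size of the log2 fold change over the root of F. Single values were compared by exact permutation over the 252 assignments of libraries to groups (smallest p 0.00794). The count tests were tested on simulated data. GENCODE M21 annotation matched 54809 of 54838 identifiers, and all 6 marker genes matched RefSeq promoters by symbol. The alternatives were other scalings, filters, tests (DESeq2 1.42.0), thresholds, a replicate block, GC and length offsets (mgcv 1.9.3), protein-coding genes only, ranks per kilobase, each library left out and, added after the data were seen, the dispersions of edgeR 3. Partner genes were named when called with the largest changes, when most abundant in a long list, or as expressed members of lists of up to 5 genes. Genes and lists were chosen with earlier results of these data known. The methods describe each hippocampus as divided into a dorsal and a ventral part, so the libraries of both groups came from the same mice. Same-numbered libraries were not stated to share mice. The p-values measure the spread between pools taken as independent, which dorsal and ventral pools that share mice are not. Some genes and the lists that hold them are not reported here.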

Additional observations from a re-analysis of the deposited data

Results flagged for a closer look

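In 12 groups of 5 libraries, the 6 marker genes in dorsal and in ventral libraries, the highest and the lowest library were compared with the rest by Dixon's ratio of gap to range, and 2 groups passed the 95% critical value of 0.710. Chance passes about 1 in 20 groups. Calcrl was at 21.53 CPM in dorsal replicate 2, where the next dorsal library was at 5.16 CPM, a gap of 0.898 of the group's range. Tm4sf1 was at 3.809 CPM in dorsal replicate 3, where the next dorsal library was at 2.52 CPM, a gap of 0.718 of the range. The fold change of Calcrl turned on its outlying library, and that of Tm4sf1 was not called with or without it.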

How the results depend on the processing

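The direction and call of Satb1 and Rgs12 were the same in all 24 alternatives, with log2 fold changes of -0.90 to -0.70 and -1.11 to -0.76, and Tm4sf1 was never called. Ap2s1 kept its call in 22 alternatives and lost it at -0.52 with GC and length offsets and -0.54 when these were combined with the replicate block. Calcrl ran from -1.08 to 0.12 when 1 library at a time was left out, and the number of marker genes called ventral-enriched ran from 2 to 4.

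The correlation of deviations between same-numbered libraries was 0.0159 on average (-0.032 to 0.0695), against -0.0021 between libraries of different numbers. These values do not tell whether same-numbered libraries share mice. The replicate block gave 2656 dorsal-enriched and 1672 ventral-enriched genes. With the block alone the log2 fold changes were -0.74 for Satb1, -1.04 for Rgs12, -0.78 for Ap2s1, -0.34 for Calcrl and -0.36 for Tm4sf1, and no call of these genes changed.

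Over all tested genes the calls numbered 2636 (dorsal) and 1655 (ventral). At an adjusted p below 0.01 these numbers were 1498 and 897, and with protein-coding genes only 1665 were called dorsal-enriched. Per kilobase the ranks were 769 for Ap2s1, 2417 for Satb1, 7142 for Rgs12 and 13096 for Tm4sf1, and among protein-coding genes Csf2rb2 was at 13317. The Csf2rb2 share differed by -39.7 to -11.7 percentage points when 1 library was left out.

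Signs turned for uncalled or GC-dependent genes. With GC and length offsets, and then with the block added, the log2 fold changes were 0.065 and 0.062 for Ap2b1, -0.084 and -0.088 for Eps15, -0.099 and -0.099 for Gria2, and 0.086 and 0.11 for Wfs1. Ramp1 was at -0.0027 in the likelihood-ratio test, -0.023 with the replicate block and -0.0029 with the dispersions of edgeR 3. Leaving out 1 library gave -0.16 to 0.026 for Ap2b1, -0.047 to 0.12 for Eps15 and -0.063 to 0.14 for Ramp1. Why they turned was not tested. Csf2rb2 had at most 22 counts per library, and the part of depth in its result was not tested. Calcrl was at -0.77 with GC and length offsets and -1.01 with the block added, near its -1.08 without dorsal replicate 2.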
